A study of Rattus norvegicus with 23 samples.

Results

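Transcripts of 10 genes that mark activity of the ERK pathway and feed back on it were followed across rat oligodendroglia. They are Dusp4, Dusp5, Dusp6, Spry2, Spry4, Spred1, Etv4, Etv5, Phlda1 and Egr1, a set given by name, out of the 32552 gene identifiers in the longest count files. This set and the other gene lists used below were chosen with earlier results of these data known. Shares over all genes are given beside their counts as background, not as a test of the set. Of the 10 genes, 9 are listed in all 23 count files, and Spred1 is listed in the files of the 12 differentiating CG4 libraries and is described in those alone. ERK feedback genes are described below by role: phosphatases, inhibitors of receptor signalling, ETS transcription factors, and the response genes Phlda1 and Egr1.

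Growth factors such as PDGF-AA and bFGF bind receptor tyrosine kinases, which activate Ras, Raf, MEK and then the ERK kinases. Active ERK induces transcription of its own inhibitors, so transcripts of dual-specificity phosphatases, Sprouty and Spred proteins are commonly read as a record of recent ERK signalling. In the oligodendrocyte lineage PDGF-AA and bFGF keep progenitors dividing, and their withdrawal permits differentiation into myelin-forming cells. Dusp4 (ENSRNOG00000011921), Dusp5 (ENSRNOG00000014061) and Dusp6 (ENSRNOG00000023896) encode phosphatases that dephosphorylate ERK, the first pair in the nucleus and Dusp6 in the cytoplasm. Spry2 (ENSRNOG00000010058) and Spry4 (ENSRNOG00000013851) encode Sprouty inhibitors of receptor tyrosine kinase signalling, and Spred1 (ENSRNOG00000005209) encodes an inhibitor that acts on Ras together with neurofibromin. Etv4 (ENSRNOG00000020792) and Etv5 (ENSRNOG00000001785) encode ETS transcription factors induced by FGF signalling, Phlda1 (ENSRNOG00000004019) encodes a pleckstrin homology-like domain protein, and Egr1 (ENSRNOG00000019422) encodes an immediate early zinc finger transcription factor.

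The 23 libraries form 6 groups. In 3 groups of 4 libraries each, CG4 cells differentiated for 3 days after transduction with pCAG-myc-Zfp488-IRES-EGFP (called Zfp488 here), with pCAG-T7-Nkx2.2-IRES-EGFP, here called Nkx2.2, or with the empty vector pCAG-IRES-EGFP (control). CG4 is an immortalized line made from oligodendroglia of the rat brain, and the CAG promoter of the vectors, which is active in most cell types, drives the introduced gene. Wild-type CG4 cells under proliferative conditions (3 libraries) carried no vector and were read at 2x100 bases, whereas all other libraries were read at 2x150 bases. Wild-type primary rat oligodendroglia, shaken off mixed glial cultures, were sequenced after 3 days of differentiation (4 libraries) and under proliferative conditions (4 libraries). Proliferating cells received bFGF and PDGF-AA in basal medium, and differentiating cells received SATO medium with T3/T4 at a high dose plus CNTF. Differentiation therefore combined the loss of bFGF and PDGF-AA with new factors, and in CG4 cells it also coincided with the vector and the read length, which cannot be told apart.

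Libraries held 20063345 to 49206479 counted reads. Levels are given as CPM, the counts of a gene scaled to a common library size, on a scale common to all libraries, and they are compared between libraries, not between genes, because gene lengths were not used. Zfp488 averaged 167 ± 29.0 CPM in Zfp488 cells and 42.4 ± 11.3 CPM in control cells, and Nkx2-2 averaged 1621 ± 311 CPM in Nkx2.2 cells and 271 ± 41.5 CPM in control cells (SD, n = 4 each). By edgeR at an adjusted p under 0.05, Zfp488 was called higher and Nkx2-2 lower in Zfp488 cells compared with control. In Nkx2.2 cells 1 of these 2 genes was called higher and 0 lower. The counts include transcripts of the introduced genes and of the cells' own genes. The 7 mature oligodendrocyte markers measured summed to 89405 to 99342 CPM in differentiating primary cells and to 1129 to 1204 CPM in proliferating primary cells. In CG4 cells they summed to 9618 to 17083 CPM in differentiating control cells and to 1297 to 2386 CPM in proliferating cells. In bulk RNA, fewer cells of a type and less RNA per cell cannot be told apart.

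Promoter sequences of 8 of the 10 genes were found in RefSeq's GRCr8 table, which holds 250 bases before to 50 bases after each start site, while the counts were made on rn6. Dusp4 and Etv4 had no entry, and Spry2 had 2. The search covered 4 motifs on both strands: the CArG box, which binds serum response factor, the ETS core GGAA, the cAMP response element TGACGTCA and the AP-1 site TGANTCA. Egr1 and Dusp5 are shown because each held 2 CArG boxes, written in capitals, and the other members with an entry held none. A CArG box occurred in 1.64% of all 33469 promoters in the table and 2 or more occurred in 0.0209%. The Egr1 window is chr18:26736828-26737127 on the + strand, with boxes starting at positions -105 and -83 relative to the start site. The Dusp5 window is chr1:262543524-262543823 on the + strand, with adjoining boxes at -82 and -72.
Egr1: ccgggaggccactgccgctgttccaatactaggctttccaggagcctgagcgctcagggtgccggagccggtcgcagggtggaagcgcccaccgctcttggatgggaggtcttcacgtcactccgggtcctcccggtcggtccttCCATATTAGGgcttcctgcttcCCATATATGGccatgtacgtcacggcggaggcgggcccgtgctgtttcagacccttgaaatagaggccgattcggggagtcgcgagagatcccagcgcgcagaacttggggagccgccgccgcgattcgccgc
Dusp5: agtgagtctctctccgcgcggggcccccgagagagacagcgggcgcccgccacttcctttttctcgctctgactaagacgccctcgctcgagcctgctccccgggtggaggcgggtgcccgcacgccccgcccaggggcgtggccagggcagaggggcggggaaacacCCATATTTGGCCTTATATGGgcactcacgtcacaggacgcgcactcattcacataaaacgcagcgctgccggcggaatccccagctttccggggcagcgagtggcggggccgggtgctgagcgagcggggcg
Spry4 and Etv5 are shown as members without a CArG box, and the capitals in them mark the ETS core on either strand. The Spry4 window is chr18:30702497-30702796 on the - strand, and the Etv5 window is chr11:92113013-92113312 on the + strand.
Spry4: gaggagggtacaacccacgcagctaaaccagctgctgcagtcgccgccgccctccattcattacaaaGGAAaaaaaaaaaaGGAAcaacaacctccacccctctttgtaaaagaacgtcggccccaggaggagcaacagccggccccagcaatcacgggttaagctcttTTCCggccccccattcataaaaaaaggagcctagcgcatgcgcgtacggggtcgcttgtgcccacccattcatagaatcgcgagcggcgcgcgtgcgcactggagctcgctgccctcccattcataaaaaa
Etv5: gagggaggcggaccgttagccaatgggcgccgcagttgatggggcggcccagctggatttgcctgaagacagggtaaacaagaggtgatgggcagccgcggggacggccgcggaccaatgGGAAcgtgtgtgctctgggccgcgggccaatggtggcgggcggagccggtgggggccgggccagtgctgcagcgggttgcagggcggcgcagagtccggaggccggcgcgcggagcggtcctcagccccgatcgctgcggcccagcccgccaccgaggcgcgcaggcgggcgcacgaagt
The ETS core was present in all members with an entry, with 1 match in Etv5, 3 in Spry4, 4 in Dusp5 and 6 in Egr1, but also in 95.8% of all promoters, with a median of 3 matches. ETS cores at -107 and -86 in Egr1 overlapped its CArG boxes. Neither the cAMP response element, present in 1.83% of all promoters, nor the AP-1 site, present in 7.33%, was in the window of any member. These are matches of letters within 300 bases, and no binding was measured.

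Most of the 9 genes listed in all files were highest in proliferating primary cells. This was so for Dusp4, Dusp5, Dusp6, Spry2, Spry4 and Phlda1, whose 4 proliferating primary libraries lay above every other library of the series. Etv4 was highest in proliferating CG4 cells at 90.5 ± 43.7 CPM (SD, n = 3), followed by proliferating primary cells at 57.5 ± 1.38 CPM (n = 4), and their libraries did not overlap. Etv5 had 334 ± 92.9 CPM in proliferating CG4 cells and 265 ± 6.51 CPM in proliferating primary cells, with overlapping libraries. Egr1 averaged 83.2 ± 137 CPM in proliferating CG4 cells, where 1 library reached 242 CPM, and 176 ± 14.6 CPM in proliferating primary cells, and their libraries overlapped. At the other end, the lowest mean lay in control CG4 cells for Dusp4, Dusp6, Spry2, Etv4, Etv5 and Phlda1, in Zfp488 cells for Spry4, in Nkx2.2 cells for Egr1 and in differentiating primary cells for Dusp5. In each of these cases the lowest group overlapped with its next neighbour.

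**Figure D1:**
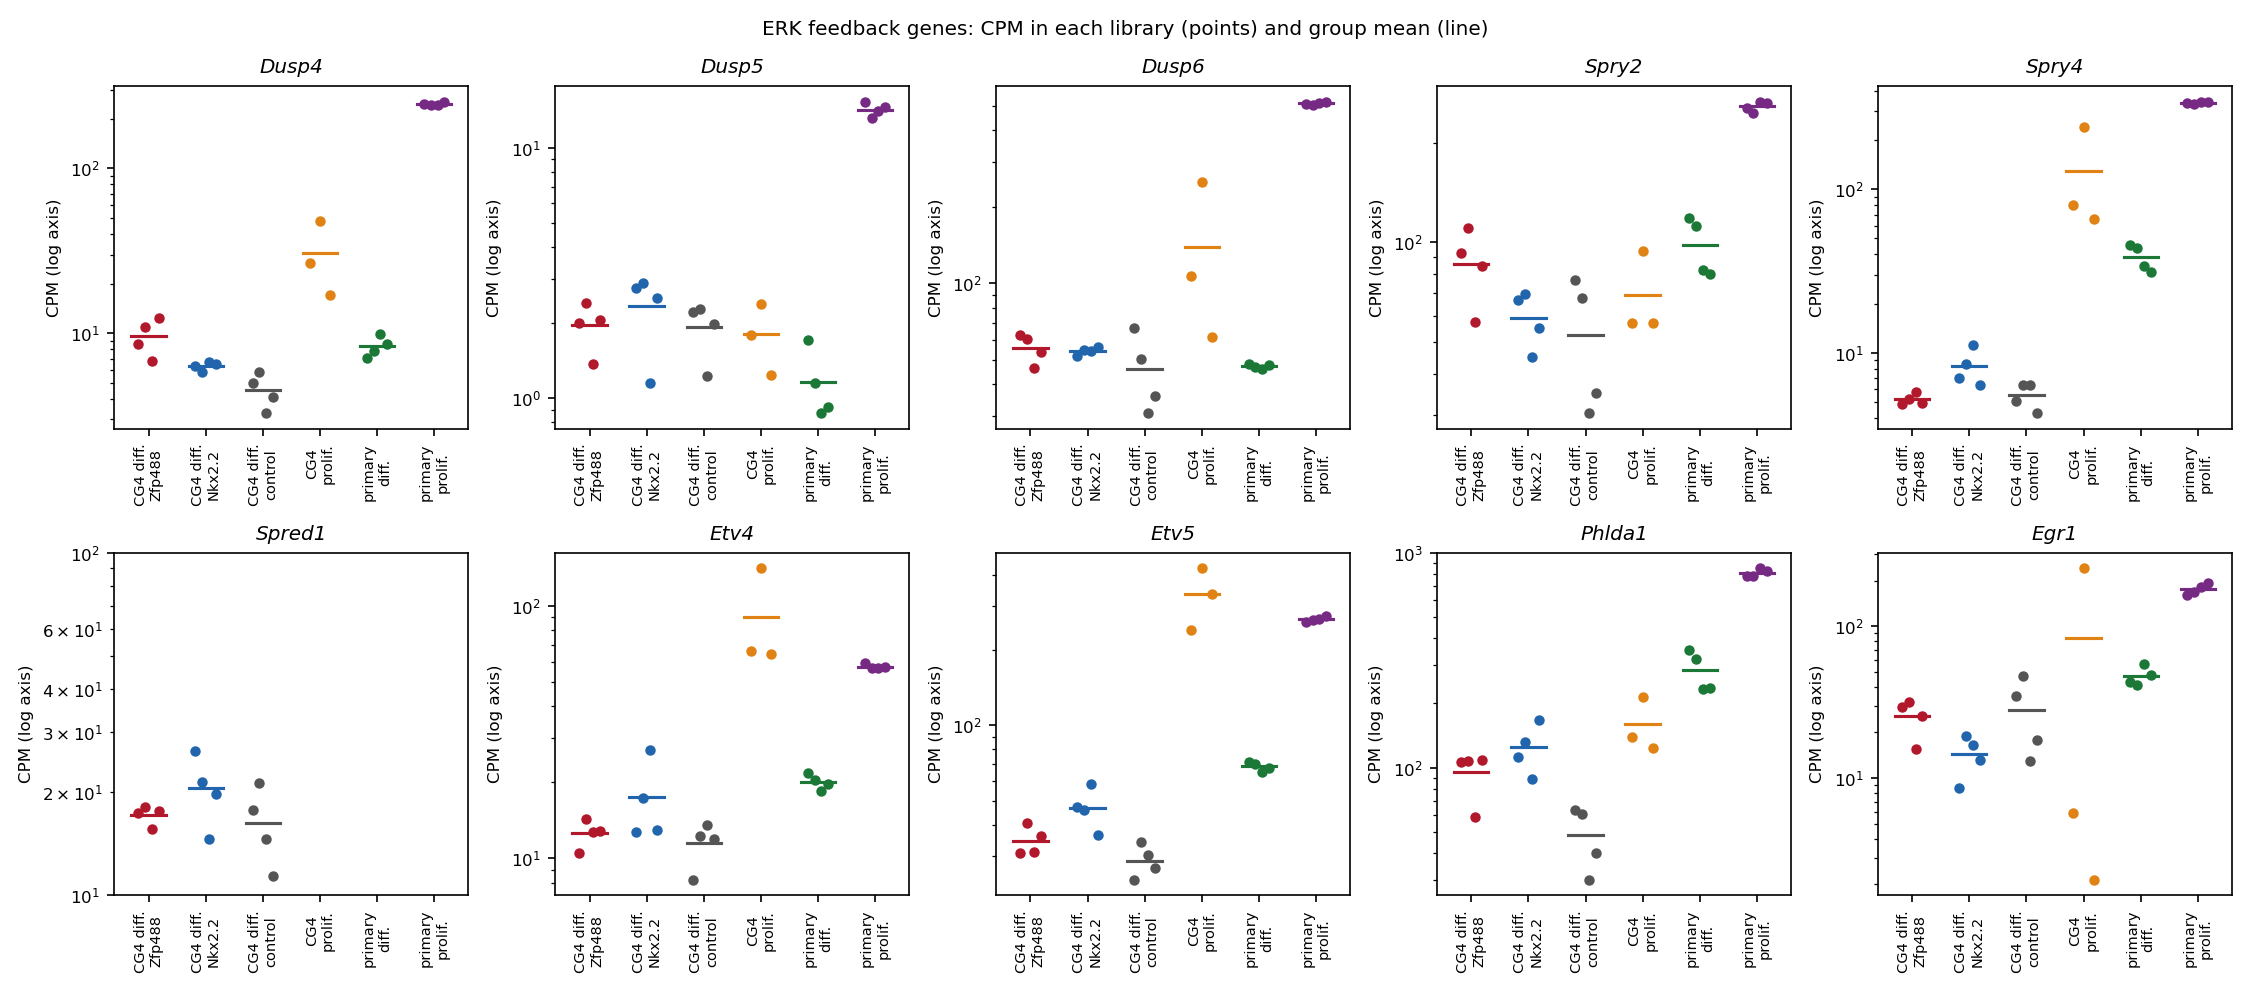
CPM on a log axis for each of the 10 genes, with a point per library and a line at the mean of each of the 6 groups. Dusp4 averaged 8.38 CPM in differentiating primary cells against 246 CPM in proliferating primary cells, Egr1 in proliferating CG4 cells spans 2.14 to 242 CPM, and Spred1 has values in the differentiating CG4 groups alone.

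In primary cells all 9 measured feedback genes were lower after 3 days of differentiation, by 2.54-fold for Spry2 up to 28.8-fold for Dusp4. By edgeR's quasi-likelihood test, 9 of 9 members were called lower at a Benjamini-Hochberg adjusted p under 0.05, where 43.3% of the 12310 genes tested were called lower, 41.5% higher and 84.8% in either direction. Their median log2 change was -1.91, beside -0.02 over all genes tested. The libraries of the 2 conditions did not overlap for any of the 9 genes, which held in this direction for 43.2% of all genes. A log2 change under -3, reached by Dusp4, Dusp5, Dusp6 and Spry4, occurred in 4.09% of all genes.

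The phosphatases fell most. Dusp4 had 7.06, 7.85, 9.95 and 8.65 CPM in differentiating primary cells, against 246, 242, 241 and 254 CPM in proliferating ones. The differentiating libraries thus kept 3.41% of the proliferating mean, with a log2 change of -4.85 ± 0.09 (SE, adjusted p = 1.89e-12). Dusp6 had 48.0, 47.0, 46.2 and 47.8 CPM in differentiating cells, against 507, 504, 514 and 519.9 CPM in proliferating cells (log2 change -3.39 ± 0.04, adjusted p = 1.61e-13). Replicates of Dusp6 varied little in either condition, and the conditions were far apart. Dusp5, the phosphatase with the fewest reads, averaged 1.16 ± 0.378 CPM in differentiating and 14.2 ± 0.913 CPM in proliferating cells (SD, n = 4 each), a log2 change of -3.52 ± 0.16 (adjusted p = 2.15e-09).

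The Sprouty genes fell by different amounts. Spry4 had 45.7, 43.6, 34.1 and 31.0 CPM in differentiating primary cells, against 335, 331, 344 and 342 CPM in proliferating ones, with a log2 change of -3.08 ± 0.10 (adjusted p = 2.47e-10). Spry2 had 118, 112, 82.3 and 80.4 CPM in differentiating cells, against 254, 246, 266 and 263 CPM in proliferating cells, with a log2 change of -1.34 ± 0.11 (adjusted p = 5.36e-07). In both genes differentiating libraries 1 and 2 lay above libraries 3 and 4, and all 4 lay below every proliferating library. The differentiating primary libraries form close pairs over the whole transcriptome: the chi-square over its degrees of freedom was 8.45 between libraries 1 and 2 and 1.77 between 3 and 4, but 29.3 to 37.1 across the pairs. What a pair has in common is not stated in the labels. All 9 genes stayed lower when each pair was summed to 1 library or when either pair was left out. By the same measure the proliferating primary libraries were also close to each other, at 2.15 to 4.48. Libraries within the CG4 groups stood at 22.8 to 265. The SE and adjusted p in primary cells measure the spread between libraries this close.

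Among the transcription factors, Etv5 had 71.1, 70.2, 65.3 and 67.3 CPM in differentiating primary cells, against 258, 263, 267 and 274 CPM in proliferating cells (log2 change -1.91 ± 0.04, adjusted p = 6.48e-12). Etv4 kept 34.9% of its proliferating level (log2 change -1.47 ± 0.05, adjusted p = 3.7e-10). Egr1 had 42.7, 41.3, 56.8 and 47.5 CPM in differentiating cells, against 161, 168, 181 and 194 CPM in proliferating cells (log2 change -1.86 ± 0.10, adjusted p = 1.05e-08). For Egr1 every differentiating library lay far below every proliferating library, with no gradation between them. Phlda1 averaged 285 ± 60.5 CPM in differentiating and 807 ± 32.7 CPM in proliferating cells (SD, n = 4 each), a log2 change of -1.46 ± 0.12 (adjusted p = 4.73e-07).

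Other ERK-responsive genes of primary cells were also mostly lower, with exceptions. Of 12 other immediate early and ERK target transcription factors tested, 9 were lower and 2 were higher in differentiating cells, with a median log2 change of -2.20. Egr3, an immediate early zinc finger factor, changed by -4.93 ± 0.11 (1.01 CPM differentiating against 32.3 CPM proliferating), and Myc, a driver of growth, by -2.18 ± 0.05 (29.2 CPM differentiating against 136 CPM proliferating). The 2 that rose were Fos (log2 change 1.96 ± 0.18, 79.6 CPM differentiating against 21.1 CPM proliferating) and Jun (1.07 ± 0.14, 357 CPM differentiating against 175 CPM proliferating), the components of AP-1. Of 10 other ERK target genes, 9 were lower and none was higher, with a median of -3.31, among them the neurosecretory protein gene Vgf (-7.90 ± 0.16, 2.73 CPM differentiating against 698 CPM proliferating) and the EGF receptor ligand gene Hbegf (-3.27 ± 0.09, 13.5 CPM differentiating against 134 CPM proliferating). The remaining MAP kinase phosphatases did not follow Dusp4, Dusp5 and Dusp6: 4 of 5 were higher and 1 was lower, with a median of 0.92, and Dusp7, which acts on ERK, changed by 1.80 ± 0.04 (365 CPM differentiating against 108 CPM proliferating). Of 14 other inhibitors of receptor and Ras signalling, 6 were higher and 6 were lower, but under scaling by total counts 3 were higher and 9 were lower (median -0.61 against -0.11). The Sprouty and Spred relatives Spry1 (-2.32 ± 0.07), Spred2 (-1.91 ± 0.05) and Spred3 (-2.04 ± 0.04) were among the lower ones. These are log2 changes of differentiating over proliferating primary cells with their SE, from the same edgeR fit.

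Transcripts of the upstream pathway moved in both directions. Of 15 receptor tyrosine kinases, 8 were higher and 6 were lower, among them the FGF receptor genes Fgfr2 (637 CPM differentiating against 20.5 CPM proliferating) and Fgfr3 (log2 change 3.67 ± 0.05, 123 CPM differentiating against 9.97 CPM proliferating), which were higher. Pdgfra, the PDGF-AA receptor gene, changed by -0.57 ± 0.04 and Fgfr1, another FGF receptor gene, by -0.69 ± 0.11. Of 25 components of the cascade from adaptors to ERK and its kinases, 15 were higher and 7 were lower, with Mapk3, which encodes ERK1, at 2.05 ± 0.04 and the adaptor gene Shc1 at -2.08 ± 0.05. Of 12 growth factor ligands, 4 were higher and 5 were lower. The balance of these lists depended on the scaling. Under total counts the cascade had 8 higher and 13 lower (median log2 change -0.14 against 0.36), the ligands 2 higher and 7 lower, and the receptors 7 higher and 7 lower.

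Markers of other cells moved with the same contrast. Of 11 listed microglia markers, 3 could be measured in all libraries (Csf1r, P2ry12 and Cd68), all 3 were lower, and they summed to 18.8 to 24.9 CPM in differentiating primary cells and to 451 to 469 CPM in proliferating primary cells. Csf1r, the receptor that sustains microglia, averaged 14.3 CPM in differentiating and 356 CPM in proliferating cells. Of 8 fibroblast and pericyte markers, 3 were measured, all 3 were lower, and they summed to 9.81 to 20.2 CPM in differentiating and 126 to 154 CPM in proliferating cells. Of 8 astrocyte markers, 7 were measured and 6 were higher, with sums of 1430.1 to 2577 CPM in differentiating and 212 to 223 CPM in proliferating cells. The 8 listed progenitor markers were Pdgfra, Cspg4, Ptprz1, Olig1, Olig2, Sox10, Lhfpl3 and Gpr17. Of the 6 progenitor markers measured, 4 were higher and 1 was lower, with sums of 6019 to 6651 CPM in differentiating and 4166 to 4409.7 CPM in proliferating cells. Pdgfra fell, as given above. All 5 Schwann cell markers measured were higher, at 783 to 889.8 CPM in differentiating and 555 to 605 CPM in proliferating cells, and of 4 neuron markers 3 were lower and 1 was higher, at 164 to 179 CPM in differentiating and 256 to 267 CPM in proliferating cells. The 7 proliferation genes, which were all lower, summed to 506 to 537 CPM in differentiating and 1599.8 to 1673 CPM in proliferating cells. No measured marker of these lists was at 0 in either condition, and the part of other cells and of cell division in the fall of the feedback genes was not tested.

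In CG4 cells some of the feedback genes were called lower after differentiation and others missed the threshold. Of 9 members tested, 6 were called lower and none higher in differentiating control cells compared with proliferating cells, where 33.2% of the 12486 genes tested were called lower, 32.5% higher and 65.8% in either direction. The members' median log2 change was -1.68, beside 0.01 over all genes tested. The genes called lower were Spry4, Etv5, Etv4, Dusp4, Phlda1 and Dusp6, and those that missed the threshold were Dusp5, Spry2 and Egr1.

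Spry4 had 5.07, 6.34, 6.35 and 4.26 CPM in differentiating control CG4 cells, against 79.6, 241 and 66.2 CPM in proliferating ones, a log2 change of -4.52 ± 0.47 (adjusted p = 7.95e-05, and -3.70 without proliferating replicate 2). Etv5 had 24.1, 34.0, 30.2 and 26.8 CPM in differentiating cells, against 239.7, 425 and 336 CPM in proliferating cells (log2 change -3.51 ± 0.22, adjusted p = 5.04e-06). For both genes even the lowest proliferating library lay well above the highest differentiating one. Etv4 changed by -2.95 ± 0.31 (11.5 ± 2.31 CPM in differentiating cells, n = 4, against 90.5 ± 43.7 CPM in proliferating cells, n = 3, adjusted p = 8.85e-05), and Dusp4 by -2.72 ± 0.37 (4.55 ± 1.10 CPM differentiating against 30.7 ± 15.9 CPM proliferating, adjusted p = 0.000306). Phlda1 changed by -1.68 ± 0.30 (48.7 ± 16.4 CPM differentiating against 159 ± 48.1 CPM proliferating, adjusted p = 0.00146). The libraries did not overlap for any of these 5 genes, as for 34.2% of all genes in this direction. A log2 change under -3, as in Spry4 and Etv5, occurred in 3.60% of all genes.

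Dusp6 overlapped between the conditions. It had 66.8, 50.2, 30.8 and 35.9 CPM in differentiating control CG4 cells, against 107, 250.3 and 61.5 CPM in proliferating cells, with a log2 change of -1.57 ± 0.46 (adjusted p = 0.0164) that became -0.84 (adjusted p = 0.0573) without proliferating replicate 2. Spry2 averaged 52.5 ± 23.2 CPM in differentiating and 69.4 ± 21.5 CPM in proliferating cells (log2 change -0.37 ± 0.36, adjusted p = 0.387), and Dusp5 averaged 1.92 ± 0.478 CPM in differentiating and 1.80 ± 0.571 CPM in proliferating cells (0.13 ± 0.35, adjusted p = 0.759). Egr1 had 35.0, 47.3, 12.9 and 17.8 CPM in differentiating cells, against 5.89, 242 and 2.14 CPM in proliferating cells. Its differentiating libraries lay above 2 of the proliferating libraries and below the other. The log2 change of Egr1 was -1.53 ± 1.30 (adjusted p = 0.324), and without proliferating replicate 2 it turned to 2.85 (adjusted p = 0.00686). Without that library the members counted 1 higher, Egr1, and 5 lower.

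Proliferating CG4 replicate 2 carried the highest level of all 9 feedback genes among the 3 proliferating CG4 libraries, whereas 37.7% of the genes averaging 5 CPM or more in these cells were highest in it. Dusp4 had 48.2 CPM in replicate 2 against 26.8 and 17.0 CPM in replicates 1 and 3. The excess of replicate 2 over the mean of replicates 1 and 3 was 60.2-fold for Egr1, 3.31-fold for Spry4, 2.98-fold for Dusp6 and 2.16-fold for Etv4, and 1.48-fold to 1.65-fold for Etv5, Dusp5, Phlda1 and Spry2. Relatives of Egr1 and Fos were mixed. Egr2, with 0.842 and 1.09 CPM in replicates 1 and 3, was 15.5-fold higher in replicate 2, Egr3 was 5.03-fold higher, and Fos had 26.5 CPM against 8.30 and 6.02 CPM. Egr4, Fosb and Fosl1, all under 1 CPM in every one of the 3 libraries, were not highest in replicate 2. Some other ERK-responsive genes were lowest in it: Myc had 151 CPM in replicate 2 against 415 and 337 CPM, and Atf3 had 1.69 CPM against 9.74 and 2.69 CPM. Of the 12 other immediate early and target transcription factors, 5 were highest in replicate 2, and of the 10 other ERK target genes 4 were. Over all genes, 277 of 9444 exceeded the mean of the other libraries by more than 2-fold in it, as did 343 in replicate 1 and 168 in replicate 3.

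**Figure D2:**
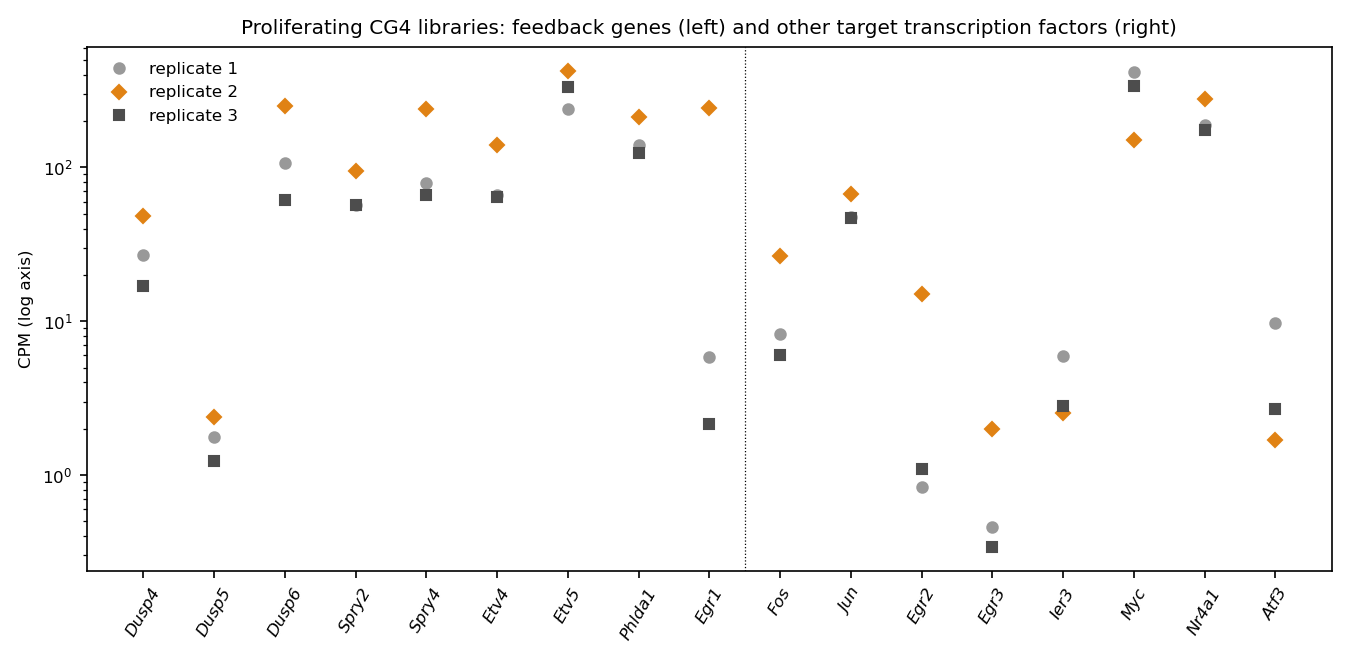
CPM on a log axis in each of the 3 proliferating CG4 libraries for the 9 feedback genes (left of the dotted line) and 8 other transcription factors among the immediate early and ERK target genes (right). Replicate 2 (orange diamonds) lies highest for all 9 feedback genes, with Egr1 at 242 CPM against 5.89 and 2.14 CPM, but lowest for Myc at 151 CPM.

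Most other ERK-responsive transcription factors of CG4 cells were higher after differentiation. Of 12 tested, 9 were higher and 2 were lower in differentiating control cells, with a median log2 change of 2.85, and without proliferating replicate 2 the count was 10 higher and 1 lower. Fos changed by 3.91 ± 0.67 (199.8 CPM differentiating against 13.6 CPM proliferating), Jun by 3.06 ± 0.38 (439 CPM differentiating against 53.8 CPM proliferating) and Egr3 by 3.39 ± 0.85 (9.43 CPM differentiating against 0.933 CPM proliferating), while Etv1, the relative of Etv4 and Etv5, changed by -1.37 ± 0.30 (57.5 CPM differentiating against 152 CPM proliferating). Of 10 other ERK target genes, 4 were higher and 1 was lower. Hbegf rose (2.67 ± 0.49, 74.3 CPM differentiating against 11.9 CPM proliferating), as did Vgf (3.17 ± 0.63, 78.3 CPM differentiating against 8.89 CPM proliferating), whereas the cyclin D1 gene Ccnd1 fell (-2.43 ± 0.30, 178 CPM differentiating against 978 CPM proliferating). Of 5 other MAP kinase phosphatases 3 were higher and 2 were lower, and of 14 other inhibitors 4 were higher and 8 were lower. Spry1 was higher (1.37 ± 0.32), and Spred2 (-0.82 ± 0.20) and Spred3 (-0.85 ± 0.32) were lower.

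Upstream genes of CG4 cells also changed. Of 16 receptor tyrosine kinases 8 were higher and 4 were lower, with Pdgfra, the PDGF-AA receptor gene, at -1.98 ± 0.26 (389 CPM differentiating against 1565 CPM proliferating) and Fgfr3 at 3.93 ± 0.31 (1098 CPM differentiating against 73.3 CPM proliferating). Of 12 ligands 7 were higher and 2 were lower, among them the insulin-like growth factor gene Igf2 at 3.94 ± 0.57 (27.4 CPM differentiating against 1.82 CPM proliferating). Of 25 cascade components 8 were higher and 13 were lower, with Braf at -2.36 ± 0.18. Microglia markers were low in both CG4 conditions, with the same 3 genes summing to 5.24 to 11.0 CPM in differentiating control cells and 4.61 to 6.51 CPM in proliferating cells, and neither of the 2 that could be tested was called by edgeR, with none at an unadjusted p under 0.05, and DESeq2 called 1. Astrocyte markers summed to 2364 to 3723 CPM in differentiating and 166 to 349.5 CPM in proliferating CG4 cells, with 1 marker at 0 in the proliferating cells, and 5 of the 7 were higher. The fibroblast and pericyte markers summed to 8.20 to 21.1 CPM in differentiating and 1.92 to 5.51 CPM in proliferating cells, and the 2 tested were higher. Progenitor markers summed to 4030.0 to 4301 CPM in differentiating and 5333 to 7078 CPM in proliferating cells, with 1 of 6 higher and 3 lower. Schwann cell markers summed to 843 to 1037 CPM in differentiating and 262 to 274 CPM in proliferating cells, with 5 of 5 higher, and neuron markers to 149.9 to 339.9 CPM in differentiating and 64.8 to 108 CPM in proliferating cells, with 2 of 4 higher and 1 lower. The 7 proliferation genes were all lower, at 429 to 540.3 CPM in differentiating and 2841 to 3137 CPM in proliferating cells. The part of these markers in the results was not tested.

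The difference between the responses of CG4 and primary cells was tested as an interaction over 15 libraries. It was called for 7 of the 9 genes, 4 with a higher and 3 with a lower response in CG4 cells, where 69.3% of the 13207 genes tested were called, 33.8% higher and 35.4% lower. All 3 phosphatases were on the higher side. Dusp5 had a response of 0.13 in CG4 cells and -3.52 in primary cells, with a fitted difference of 3.72 ± 0.38 (adjusted p = 7.14e-07), Dusp4 a difference of 2.16 ± 0.37 (adjusted p = 0.000119) and Dusp6 a difference of 1.87 ± 0.48 (adjusted p = 0.00307, and 2.59 without proliferating CG4 replicate 2), all on the log2 scale. The phosphatases had lower means in proliferating CG4 than in proliferating primary cells. These were 1.80 against 14.2 CPM for Dusp5, 30.7 against 246 CPM for Dusp4 and 139 against 511 CPM for Dusp6. After differentiation the means in control CG4 and primary cells were 1.92 and 1.16, 4.55 and 8.38, and 45.9 and 47.2 CPM, in the same order. Spry2 differed by 1.02 ± 0.39 (adjusted p = 0.0322). That call was lost when the close primary pairs were summed, when primary differentiating libraries 3 and 4 were left out (adjusted p = 0.142), and when control replicate 1 or 2, proliferating CG4 replicate 1 or 3, or replicate 3 or 4 of either primary condition was left out.

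The ETS factors were on the lower side. Etv5 had a response of -3.51 in CG4 cells and -1.91 in primary cells, with a difference of -1.55 ± 0.20 (adjusted p = 8.9e-06), and Etv4 differed by -1.43 ± 0.31 (adjusted p = 0.00084). Spry4, with responses of -4.52 and -3.08 in CG4 and primary cells, differed by -1.39 ± 0.46 (adjusted p = 0.0139). The call was lost under scaling by total counts (adjusted p = 0.0784) and without primary differentiating libraries 1 and 2 (adjusted p = 0.0743). It was also lost with a replicate block within each cell kind and control replicate 4 left out (adjusted p = 0.0522). Without proliferating CG4 replicate 2 the difference of Spry4 was -0.58 (adjusted p = 0.0241). In the main fit the Sprouty genes were found on either side of the contrast, by calls that were each lost under several alternatives. Phlda1 (-0.17 ± 0.34, adjusted p = 0.665) and Egr1 (0.38 ± 1.33, adjusted p = 0.818) missed the threshold, and without proliferating CG4 replicate 2 Egr1 differed by 4.74 (adjusted p = 8.49e-06). Of the 12 other transcription factors 11 were higher in this contrast and none lower, and of the 10 other ERK target genes 8 were higher and none lower.

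**Figure D3:**
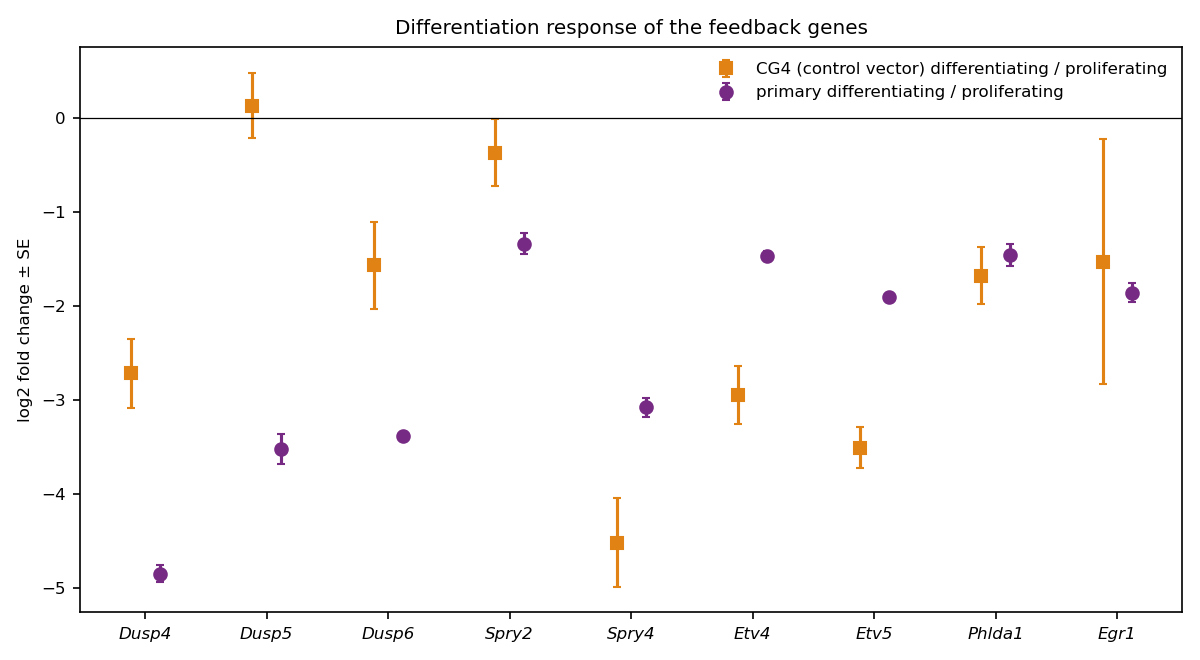
Log2 fold change of differentiating over proliferating cells with its SE from edgeR for the 9 genes, in CG4 cells (squares, control vector over wild type) and in primary cells (circles). Dusp5 stands at 0.13 in CG4 and -3.52 in primary cells, while Spry4 (-4.52 and -3.08), Etv4 (-2.95 and -1.47) and Etv5 (-3.51 and -1.91) lie lower in CG4 cells.

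Zfp488, a zinc finger protein of the oligodendrocyte lineage, went with higher levels of Dusp4 and Phlda1 in differentiating CG4 cells. Of the 10 members, 2 were called higher and none lower compared with control, where 9.04% of the 14811 genes tested were called, 5.89% higher and 3.15% lower. The members' median log2 change was 0.21, beside -0.02 over all genes. The Zfp488 and Nkx2.2 comparisons share the same control libraries, which also stand on the differentiating side of the CG4 differentiation comparison, so their values are given side by side without a measure of likeness.

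Dusp4 had 8.63, 10.9, 6.74 and 12.3 CPM in Zfp488 cells, against 4.96, 5.83, 3.27 and 4.12 CPM in control cells. Every Zfp488 library was above every control library, as for 8.12% of all genes, and the log2 change was 1.10 ± 0.21 (adjusted p = 0.00896). The call held when any library was left out, with adjusted p of 0.00519 to 0.0348. Phlda1 had 106, 107, 58.9 and 109 CPM in Zfp488 cells, against 63.8, 61.2, 30.1 and 39.9 CPM in control cells, a log2 change of 0.98 ± 0.27 (adjusted p = 0.0439). Zfp488 replicate 3 overlapped with the upper control libraries. The call of Phlda1 was lost without Zfp488 replicate 1, 2 or 4, control replicate 2, 3 or 4, or Nkx2.2 replicate 1 or 2. Its adjusted p was then up to 0.126. With same-numbered libraries paired the adjusted p of Phlda1 was 0.00162, where 24.1% of all genes were called.

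Spry2 had 92.5, 110.1, 57.4 and 84.7 CPM in Zfp488 cells, against 76.7, 67.7, 30.4 and 35.1 CPM in control cells, a log2 change of 0.73 ± 0.29 (adjusted p = 0.141). The groups overlapped, but the same-numbered ratio of Zfp488 to control was 1.20 to 2.41 in 4 of 4 pairs. With the replicate block the adjusted p of Spry2 was 0.00280, where the block called 24.1% of all genes, against 9.04% in the main fit. The other members had log2 changes of -0.13 (Egr1) to 0.29 (Dusp6), and none passed the threshold. Among related genes, the stress-inducible phosphatase gene Dusp1 (2.16 ± 0.39, 127 CPM with Zfp488 against 28.6 CPM in control, adjusted p = 0.00749) and Dusp10 (1.04 ± 0.24, 23.5 CPM with Zfp488 against 11.5 CPM in control, adjusted p = 0.0217) were higher, 2 of 6 other phosphatases. Myc was lower (-0.51 ± 0.12, adjusted p = 0.0238), 1 of 15 other transcription factors, and the ephrin receptor gene Epha4 was higher (1.02 ± 0.23, adjusted p = 0.0204), 1 of 10 other ERK targets. None of the 14 other inhibitors was called by edgeR or DESeq2, with 2 at an unadjusted p under 0.05, and Map2k1, which encodes MEK1, was the 1 of 26 cascade genes called (0.39 ± 0.07, adjusted p = 0.00891).

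Nkx2.2, a homeodomain transcription factor of oligodendrocyte progenitors, went with higher levels of Phlda1 and Etv5. Of the 10 members, 2 were called higher and none lower compared with control, where 10.6% of genes were called, 6.10% higher and 4.48% lower. The members' median log2 change was 0.42, beside -0.01 over all genes. Phlda1 had 112, 132, 88.7 and 167 CPM in Nkx2.2 cells, against 63.8, 61.2, 30.1 and 39.9 CPM in control cells, a log2 change of 1.37 ± 0.27 (adjusted p = 0.00719). Etv5 had 47.0, 45.7, 58.2 and 36.4 CPM in Nkx2.2 cells, against 24.1, 34.0, 30.2 and 26.8 CPM in control cells, a log2 change of 0.71 ± 0.15 (adjusted p = 0.00903). For both genes all Nkx2.2 libraries lay above all control libraries, as for 7.74% of all genes, and both calls held when any library was left out, with adjusted p up to 0.0301.

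Spry4 had 6.98, 8.51, 11.1 and 6.35 CPM in Nkx2.2 cells, against 5.07, 6.34, 6.35 and 4.26 CPM in control cells, a log2 change of 0.59 ± 0.19 that missed the threshold (adjusted p = 0.0625). It was higher in 4 of 4 same-numbered pairs by 1.34-fold to 1.75-fold. Spry4 passed with the replicate block (adjusted p = 0.00442) and with DESeq2 (adjusted p = 0.0201). The block called 26.2% of all genes for Nkx2.2, against 10.6% in the main fit. Etv4, at 17.4 ± 6.59 CPM in Nkx2.2 and 11.5 ± 2.31 CPM in control cells (SD, n = 4 each), had a log2 change of 0.61 ± 0.23 (adjusted p = 0.116, and 0.0153 with the block). Egr1 had 8.62, 19.0, 16.6 and 13.2 CPM in Nkx2.2 cells, against 35.0, 47.3, 12.9 and 17.8 CPM in control cells. Control replicates 1 and 2 were high and control replicates 3 and 4 lay within the Nkx2.2 range, and the log2 change of -0.97 ± 0.38 missed the threshold (adjusted p = 0.133, range over alternatives 0.0479 to 0.359). Among related genes, 3 of 10 other ERK targets were lower, including Vgf (-1.73 ± 0.49, 23.3 CPM with Nkx2.2 against 78.3 CPM in control, adjusted p = 0.0412), and none was higher. None of the 6 other phosphatases, 15 other transcription factors and 26 cascade genes was called by edgeR, where 1, 4 and 6 of them had an unadjusted p under 0.05 and DESeq2 called 0, 2 and 2. With the replicate block, 1 phosphatase was lower, 1 transcription factor was higher and 4 were lower, and 3 cascade genes were higher and 2 were lower. Of the 14 other inhibitors, Rasal1, a Ras GTPase activator, was higher (1.71 ± 0.25, adjusted p = 0.000954), as was Rasa2, and Errfi1, an inhibitor of EGF receptors, was lower (-1.06 ± 0.31, adjusted p = 0.0455).

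Spred1, described in these groups alone, had 17.4, 18.1, 15.6 and 17.6 CPM in Zfp488 cells, 26.4, 21.4, 14.6 and 19.8 CPM in Nkx2.2 cells, and 17.7, 21.2, 14.6 and 11.4 CPM in control cells. The 3 groups overlapped. The log2 change was 0.09 ± 0.19 for Zfp488 (adjusted p = 0.812) and 0.36 ± 0.19 for Nkx2.2 (adjusted p = 0.279).

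**Figure D4:**
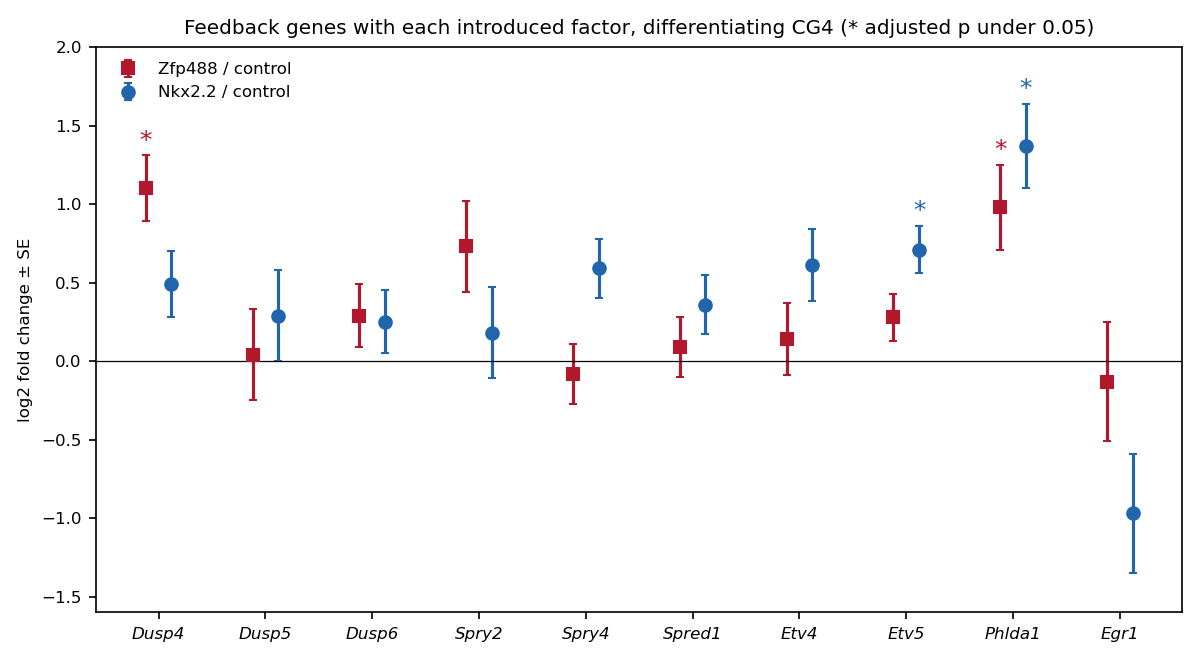
Log2 fold change over control with its SE from edgeR for the 10 genes in differentiating CG4 cells, with Zfp488 as squares and Nkx2.2 as circles, and asterisks at an adjusted p under 0.05. The asterisks stand over Dusp4 (1.10) and Phlda1 (0.98) for Zfp488 and over Etv5 (0.71) and Phlda1 (1.37) for Nkx2.2, and both sets share the control libraries.

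With the factors set directly against each other, 3 of 10 members were called, where 25.3% of genes were called, 13.3% as higher. The count of members is near that share and does not set them apart. Of the members called, 1 was higher and 2 were lower in Zfp488 than in Nkx2.2 cells. Dusp4 was higher (log2 change 0.61 ± 0.20, adjusted p = 0.0451), and Spry4 (-0.67 ± 0.19, adjusted p = 0.0214) and Etv5 (-0.44 ± 0.15, adjusted p = 0.0483) were lower. Leaving out a library gave 0 to 3 called members: none without Nkx2.2 replicate 2 or Zfp488 replicate 4, and 1 without Nkx2.2 replicate 1 or 3, Zfp488 replicate 1 or 2, or control replicate 4. With same-numbered libraries paired, 6 members were called, where 42.4% of all genes were, with Spry2 higher (0.53 ± 0.14, adjusted p = 0.0112) and Etv4 (-0.42 ± 0.15, adjusted p = 0.0410) and Phlda1 (-0.42 ± 0.15, adjusted p = 0.0494) lower in Zfp488 cells beside the 3 above. Of the 10 other ERK target genes 4 were higher in Zfp488 cells and none lower, including Hbegf (1.17 ± 0.24, 125 CPM with Zfp488 against 55.5 CPM with Nkx2.2) and Epha4 (1.18 ± 0.23, 28.0 CPM with Zfp488 against 12.4 CPM with Nkx2.2). Jun (1.12 ± 0.30, 696 CPM with Zfp488 against 319 CPM with Nkx2.2) and Atf3 (1.80 ± 0.46, 84.6 CPM with Zfp488 against 24.2 CPM with Nkx2.2) were higher among 15 other transcription factors, and Dusp1 (2.32 ± 0.39) among 6 other phosphatases.

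Replicates of the differentiating CG4 groups moved together by number. Replicate 3 was lowest in all 3 groups for Dusp5, Spry2 and Phlda1, replicate 1 was lowest in all 3 for Etv4, replicate 3 was highest in all 3 for Spry4, and replicate 2 was highest in all 3 for Dusp5 and Egr1. Over all genes, libraries of the same number departed from their groups' means together, with correlations of 0.207 to 0.793 between Zfp488 and control, 0.190 to 0.595 between Nkx2.2 and control and 0.304 to 0.656 between Zfp488 and Nkx2.2. By number, Phlda1 was 1.66-fold to 2.72-fold higher with Zfp488 and 1.75-fold to 4.19-fold higher with Nkx2.2 than in control, in 4 of 4 pairs each. Dusp4 was 1.74-fold to 2.98-fold higher with Zfp488 in 4 of 4 pairs. Members that missed the threshold in the main fit were also higher in 4 of 4 pairs. These were Spry2 and Etv5 with Zfp488, and Spry4, Spred1 and Etv4 with Nkx2.2. Egr1 was not uniform, with ratios of 0.246, 0.401, 1.29 and 0.743 of Nkx2.2 to control for numbers 1 to 4.

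**Figure D5:**
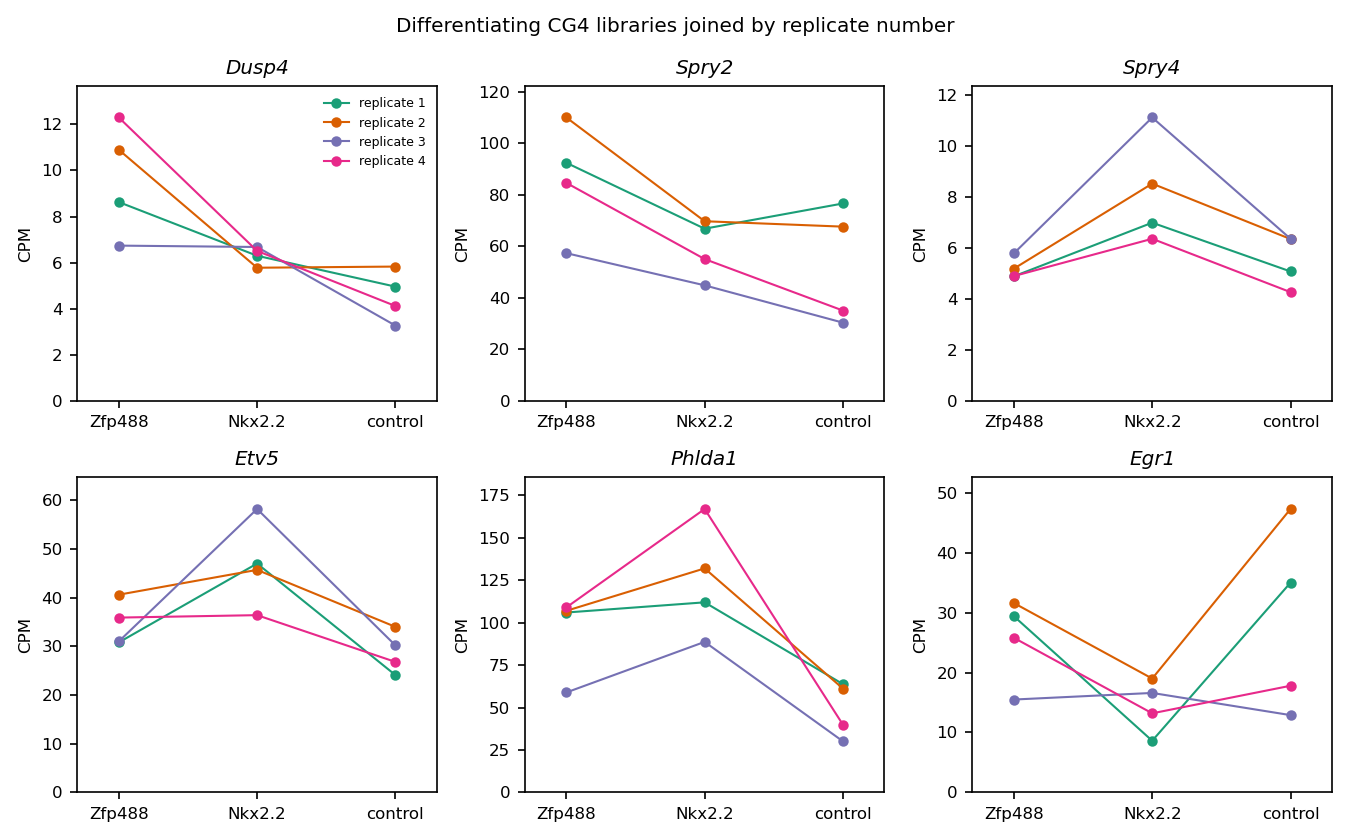
CPM of 6 feedback genes in the differentiating CG4 libraries, with Zfp488, Nkx2.2 and control from left to right and lines joining libraries of the same replicate number. Phlda1 is above control for every number with either factor (58.9 to 109 CPM with Zfp488, 88.7 to 167 CPM with Nkx2.2 and 30.1 to 63.8 CPM in control), and Egr1 crosses.

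Other markers also differed with the factors. The 7 mature oligodendrocyte markers summed to 17002 to 32094 CPM in Zfp488, 5962 to 16588 CPM in Nkx2.2 and 9618 to 17083 CPM in control cells, with 3 of 7 called higher for Zfp488 and none called for Nkx2.2, where 1 had an unadjusted p under 0.05 and DESeq2 called 1. The 3 measured fibroblast and pericyte markers summed to 23.9 to 75.5 CPM in Zfp488, 36.3 to 129 CPM in Nkx2.2 and 8.20 to 21.1 CPM in control cells, with 2 called higher for Zfp488 and 1 for Nkx2.2. The 7 proliferation genes summed to 376 to 550.1 CPM in Zfp488, 517 to 653 CPM in Nkx2.2 and 429 to 540.3 CPM in control cells, with none called for Zfp488 by edgeR, by DESeq2 or at an unadjusted p under 0.05, and 1 called higher for Nkx2.2. The 6 progenitor markers listed in all files summed to 3506 to 3789 CPM in Zfp488, 3054 to 3859.6 CPM in Nkx2.2 and 4030.0 to 4301 CPM in control cells, with 1 of 7 called lower for Zfp488 and 1 called higher for Nkx2.2. Neuron markers summed to 342 to 517 CPM in Zfp488, 152 to 208 CPM in Nkx2.2 and 149.9 to 339.9 CPM in control cells, with 1 of 4 called higher and 1 lower for Zfp488. Astrocyte markers summed to 1964 to 2907 CPM in Zfp488, 2043 to 3863 CPM in Nkx2.2 and 2364 to 3723 CPM in control cells, with 1 of 7 called higher and 2 lower for Zfp488. Of 5 Schwann cell markers, 1 was called higher for Zfp488, and 1 was called higher and 1 lower for Nkx2.2. Of 3 microglia markers, which summed to 4.99 to 8.49 CPM in Zfp488, 6.48 to 14.2 CPM in Nkx2.2 and 5.24 to 11.0 CPM in control cells, 1 was called higher for Zfp488. No measured gene of these lists was at 0, and their part in the levels of Dusp4, Etv5 and Phlda1 was not tested.

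The genes whose group profiles lay closest to each member were sought among 10079 named candidates averaging at least 5 CPM over the 23 libraries. Closeness was the root mean square distance between log2 CPM means over the 6 groups after centring. Etv4 lay closest to Gins3 (0.06) and Mad2l1 (0.10), genes of DNA replication and of the spindle checkpoint, and Etv5 to Rrm2 (0.13), a ribonucleotide reductase subunit gene, and Pdzrn4 (0.17). Dusp4 lay closest to Tbxas1 (0.36) and Coro1a (0.38), genes known from leukocytes and microglia, and Spry4 to Plxna2 (0.36) and Dscaml1 (0.62). Dusp5 lay closest to Plk2 (0.24) and Pdlim7 (0.26), Dusp6 to Rpia (0.23) and Lonrf1 (0.25), Spry2 to Kcnn3 (0.20) and Zmiz1 (0.24), Phlda1 to Nrip3 (0.25) and Slc37a2 (0.37), and Egr1 to Meis2 (0.32) and Elavl4 (0.34). Among the members themselves, Etv4 and Etv5 lay closest together, at 0.31. The other members lay 0.52 to 1.04 from their nearest member among the candidates. Genes outside the set lay closer: Etv5 ranked 91 among the candidates for Etv4, and Etv4 ranked 13 for Etv5. For the other members the nearest member ranked 6 (Dusp6 for Dusp4) to 611 (Egr1 for Spry2). Dusp5 averaged under 5 CPM and was itself no candidate. Its distance of 0.52 to Dusp6 was therefore not counted for Dusp6, which was given Spry2 at 0.72. The values describe likeness over 6 points that share libraries and scaling.

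The authors' deposited table gave the same log2 changes to within 0.02 for the factor comparisons, and lower adjusted p for several members. In it Dusp4 (1.10, adjusted p = 0.000188) and Phlda1 (0.98, adjusted p = 0.00528) passed 0.05 for Zfp488. The authors' deposited table for Nkx2.2 had Phlda1 (1.37, adjusted p = 1.55e-05), Etv5 (0.72, adjusted p = 0.000434) and Spry4 (0.60, adjusted p = 0.0474) past 0.05.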

How the data were processed

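The authors deposited raw counts of each gene in a file of its own for each of 23 libraries, and these were analysed. Per the submitters' processing notes, reads were trimmed with Trimmomatic 0.36, aligned with STAR 2.5.2b to rn6 and counted with featureCounts of Subread 1.5.2, while strand use and annotation release were not given in the sources used. The authors' deposited tables also hold a log2 fold change, p-values and a normalized signal (counts divided by a size factor), from which gene names and the last comparison of the report were taken.

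Tests on these counts used edgeR 4.0.16 under R 4.3.3 (TMM, filterByExpr, quasi-likelihood, two-sided, Benjamini-Hochberg adjusted p under 0.05 over all genes tested). The 12 differentiating CG4 libraries shared a fit, as did the 8 primary, the 7 control and proliferating CG4, and the 15 libraries of the interaction. The 3 fits that used primary or proliferating CG4 libraries were limited to the 15219 identifiers listed in all files. CPM levels in all 23 libraries were scaled by TMM over these identifiers. Titles call the libraries biological replicates, and p-values measure the spread between these libraries. The members and gene lists were chosen with earlier results of these data known. Of each other list, up to 4 called genes with the smallest adjusted p could be named, and the text gives a part of them. Egr2, Egr3, Egr4, Fos, Fosb, Fosl1, Jun, Myc, Atf3, Pdgfra, Fgfr1, Spry1, Spred2, Spred3 and Csf1r were in places named after their values were seen. Same-numbered libraries of differentiating CG4 cells deviated together (every correlation over 0.1), but no label gives the meaning of a number. The main fits, with their calls and counts, therefore did not pair libraries by number. Fits with the numbers as a block are given as an alternative, and they called more members in the factor comparisons. Neither the primary (-0.107 to 0.162) nor the control and proliferating CG4 numbers (-0.102 to 0.073) paired. The alternatives were RLE size factors, total counts, no filter, DESeq2 1.42.0, other sets of libraries, the replicate block and leaving out each library. The procedure was tested on simulated data. The simulated libraries were drawn independently, so they hold neither the joint deviations by number nor the close primary pairs.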

Additional observations from a re-analysis of the deposited data

Results flagged for a closer look

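By the interaction test of edgeR, the differentiation responses of 7 of 9 feedback genes were called different between CG4 and primary cells. Calls were common in this contrast, at 69.3% of all genes tested, so the count does not set the feedback genes apart. The log2 difference of CG4 minus primary was 2.16 for Dusp4, 3.72 for Dusp5, 1.87 for Dusp6 and 1.02 for Spry2. It was -1.39 for Spry4, -1.43 for Etv4 and -1.55 for Etv5. Mean levels of Dusp4, Dusp5 and Dusp6 were also lower in proliferating CG4 than in proliferating primary cells. The calls of Spry2 and Spry4 were lost under several alternatives. Vector and read length differ between the CG4 groups, and their part cannot be told apart from the cell type.

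Phlda1 in Zfp488 cells had a lowest library, replicate 3 at 58.9 CPM, that stood apart from the other 3 at 106 to 109 CPM, with a gap of 0.941 of the whole range against a critical value of 0.829. Replicate 3 was also the lowest for Phlda1 in Nkx2.2 and control cells. Of 48 groups checked in this way, 1 stood apart, and chance alone gives about 1 in 20.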

How the results depend on the processing

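No member that was called in the reported fits reversed its direction under any alternative. Of 1024 alternative values of single members, 947 kept direction and side of the threshold, 48 lost the call, 10 gained one and 19 changed sign. These values include genes far from the threshold and fits that left out a library outside the comparison. The count of 947 therefore does not measure how stable the calls are. The count of genes called for Zfp488, 1339, became 2112 with DESeq2 and 458 to 1604 when a library was left out, and for Nkx2.2 the count of 1567 became 924 to 2302, while Zfp488 against Nkx2.2 gave 2585 to 4636 around 3741. Called members for Zfp488 numbered 1 under total counts or with the 8 compared libraries alone and 1 to 2 when a library was left out, 2 to 3 for Nkx2.2, and for Zfp488 against Nkx2.2 1 without the filter and 0 to 3 when a library was left out. Sign changes for Zfp488 were Dusp5 at -0.02 under total counts, -0.08 without Zfp488 replicate 2 and -0.13 without control replicate 3, Egr1 at 0.04 without Zfp488 replicate 3 and 0.23 without control replicate 2, and Spred1 at -0.04 without control replicate 4. For Nkx2.2, Spry2 was at -0.01 without control replicate 3, and between the factors Dusp6 was at -0.09 under total counts and -0.03 or -0.00 without Zfp488 replicate 1 or 2. In CG4 differentiation Egr1 was at 2.85 without proliferating replicate 2 and Dusp5 at -0.09 without proliferating replicate 3. In the interaction Phlda1 was at 0.30 under total counts, 0.11 without primary differentiating libraries 1 and 2, 0.00 without control replicate 3 and 0.09 without proliferating CG4 replicate 2, and Egr1 was at -0.18 or -0.21 without proliferating replicate 1 or 3. Over all fits that left out a library, these log2 changes ran from -0.13 to 0.17 (Dusp5), -0.38 to 0.23 (Egr1) and -0.04 to 0.25 (Spred1) for Zfp488, from -0.01 to 0.43 (Spry2) for Nkx2.2, from -0.03 to 0.12 (Dusp6) between the factors, from -2.11 to 2.85 (Egr1) and -0.09 to 0.38 (Dusp5) in CG4 differentiation, and from -0.33 to 0.09 (Phlda1) and -0.21 to 4.74 (Egr1) in the interaction. The cause was not tested.

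Scaling by total counts moved the median of all genes in primary cells to -0.52 (against -0.02), the members' median to -2.42, and the share of calls that were higher to 27.8% (against 49.0%). It gave 49.2% (against 65.2%) for Zfp488, 72.2% (against 57.7%) for Nkx2.2, 28.2% (against 52.6%) between them and 66.4% (against 48.8%) for the interaction.

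With the replicate block, 3576 genes (24.1%) and 3 members were called for Zfp488, 3876 (26.2%) and 4 for Nkx2.2, and 6276 (42.4%) and 6 between the factors. In primary cells the block gave 10413 genes and 9 members. With control replicate 4 left out it gave 6556 genes and 6 members for CG4 differentiation, where Egr1 turned to 1.22, and 8504 genes and 6 members for the interaction. Proliferating CG4 cells have 3 libraries whose spread sets the precision there, and Dusp5 rests on about 1 to 3 CPM in CG4 cells.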
